A study of Mus musculus with 9 samples.

Results

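The 10 genes described here, of basophils, mast cells and the CD200 receptor family, were followed across the bone marrow (BM) endothelial cell (EC) libraries of normal mice. They are Cd200r1, Cd200r3 and Cd200r4 of the CD200 receptor family, the IgE receptor subunits Fcer1a and Ms4a2, the granule proteases Mcpt8, Prss34 and Cpa3, the histamine-forming enzyme gene Hdc and the cytokine gene Il4. The 10 genes were taken by symbol from the 46078 genes of the read count table, and all 10 were among the 15937 genes with enough reads to be tested. The genes were picked with their Sca-1+ to Sca-1- difference already known, so that difference is given here as a description and without a test. The question put to the data was whether libraries with many Cd200r1 reads were those with many reads of basophil or mast cell genes.

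All 9 libraries came from BM ECs of wild type B6 mice. The cells had been sorted into a Sca-1+ fraction (4 libraries, numbered 7, 13, 15 and 19 in the labels) and a Sca-1- fraction (5 libraries, numbered 8, 10, 14, 16 and 22), and no treatment is named for either group. The titles also carry the mark CD452 on Sca-1+ library 13 and Sca-1- libraries 14 and 22, its digits alone on Sca-1- library 10, and wt on Sca-1+ libraries 15 and 19 and Sca-1- libraries 8 and 16, with neither on Sca-1+ library 7. The labels do not say what the first mark stands for, and it occurs in both groups. In the study these fractions stand for arteriolar and sinusoidal ECs, gated as CD45-Ter119-CD31+ cells, a gate meant to leave blood cells out. The labels do not say that the libraries of a group came from separate animals, so a p-value here measures only the spread between these libraries, and libraries 15 and 16 carry the same mouse number.

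Each library held between 21581653 and 25959818 counted reads. Levels are given as CPM (reads of a gene relative to the library's size) after scaling by edgeR's TMM factors, and 3 reads, used as the limit below which a gene counts as not detected, correspond to 0.0996 to 0.209 CPM. These limits cover counting error only, since the libraries were amplified without molecular identifiers. Ly6a, which encodes Sca-1, matched the sort, with 1133 ± 187 CPM (SD, n = 4) in Sca-1+ and 0.678 ± 0.524 CPM (SD, n = 5) in Sca-1- libraries. The 25 endothelial markers together took 2.11 to 2.73% of the reads in Sca-1+ but 0.197 to 0.261% in Sca-1- libraries, and 16 megakaryocyte markers took 0.0469 to 0.0679% in Sca-1+ but 3.09 to 6.65% in Sca-1- libraries. Of these, 23 endothelial markers were called higher and 15 megakaryocyte markers lower in Sca-1+ libraries. Over all tested genes 23.3% were called higher and 21.4% lower. The endothelial label of the Sca-1- libraries thus rests on markers at a low level. In RNA from a mixed sort, fewer cells of a type and less RNA per cell cannot be told apart.

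Basophils and mast cells are granulocytes armed with IgE on the high-affinity receptor FcεRI, built from an α chain (Fcer1a), a β chain (Ms4a2) and a γ chain shared with other receptors (Fcer1g). Both cell types store histamine and proteases, but mouse basophils are marked by Mcpt8 and Prss34, and tissue mast cells by chymases and tryptases such as Mcpt4, Cma1 and Tpsb2. CD200R1 is an inhibitory receptor for the membrane protein CD200 and signals through the adaptors Dok1 and Dok2, whereas Cd200r3 and Cd200r4 encode related receptors that pair with the activating adaptor DAP12 (Tyrobp).

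The start regions of 4 genes are printed here because they span the numbers of GATA words found, from 3 to none. These short words are read by GATA1 and GATA2, factors of the basophil, mast cell and megakaryocyte lineages. Each runs from 250 bases before to 50 bases after the start of transcription, 5′ to 3′ along the gene, from RefSeq on GRCm38.p6, with capitals for a GATA word on either strand, overlaps allowed. The words searched were AGATAA, with TGATAA as its variant form, then AGATAG, with TGATAG likewise. Cd200r3 lies at chr16:44943428-44943727 (+), Cd200r4 at chr16:44820478-44820777 (+), Prss34 at chr17:25298144-25298443 (+) and Mcpt8 at chr14:56085148-56085447 (-).
Cd200r3: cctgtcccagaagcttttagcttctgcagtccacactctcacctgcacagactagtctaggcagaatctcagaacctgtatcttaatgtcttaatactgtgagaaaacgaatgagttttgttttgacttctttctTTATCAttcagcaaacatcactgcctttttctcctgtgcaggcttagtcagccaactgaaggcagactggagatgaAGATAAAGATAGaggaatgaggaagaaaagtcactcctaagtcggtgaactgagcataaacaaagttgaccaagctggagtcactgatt
Cd200r4: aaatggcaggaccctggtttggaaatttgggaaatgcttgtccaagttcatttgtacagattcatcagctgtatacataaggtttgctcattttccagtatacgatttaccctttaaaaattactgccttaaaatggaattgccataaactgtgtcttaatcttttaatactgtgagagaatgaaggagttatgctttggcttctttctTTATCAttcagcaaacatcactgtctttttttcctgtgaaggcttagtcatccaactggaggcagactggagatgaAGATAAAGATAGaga
Prss34: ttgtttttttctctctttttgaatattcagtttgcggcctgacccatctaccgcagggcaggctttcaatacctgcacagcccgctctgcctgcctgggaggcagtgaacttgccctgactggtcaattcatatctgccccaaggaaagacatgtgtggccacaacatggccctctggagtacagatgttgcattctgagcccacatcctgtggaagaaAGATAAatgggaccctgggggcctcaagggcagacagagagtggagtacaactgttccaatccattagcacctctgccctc
Mcpt8: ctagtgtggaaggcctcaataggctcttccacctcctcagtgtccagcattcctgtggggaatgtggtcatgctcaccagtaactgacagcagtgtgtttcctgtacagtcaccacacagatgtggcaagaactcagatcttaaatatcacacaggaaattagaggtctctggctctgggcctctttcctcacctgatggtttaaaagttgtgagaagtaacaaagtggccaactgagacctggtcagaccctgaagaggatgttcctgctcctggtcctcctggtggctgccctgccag

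Promoters were given for 9 of the 10 genes. A GATA word stood in 8 of these 9 genes (88.9%), against 29.8% of all 32851 promoters of the same length, and 3 genes (33.3%, against 7.77%) held 2 or more. Cd200r3, Cd200r4 and Ms4a2 held 3 each, and Mcpt8 held none. The 3 words of Cd200r3 and Cd200r4 were the same, in the same order and at the same spacing. These related genes are thus not separate cases in the share with 2 or more. Each gene was counted once, although Il4 had 2 promoters, whereas the background counted every promoter. In Cd200r3 and Cd200r4 a GATA word lay inside a shared run of 32 bases, which began 124 bases before the start in Cd200r3 and 50 bases before it in Cd200r4. Over the whole windows 185 of 374 alignment columns (49.5%) held identical bases. Gap columns were counted among the 374, so the share is lower than over paired bases alone. Other pairs of these promoters, aligned the same way, gave from 42.7% (Cd200r4 with Prss34) to 51.7% (Cd200r3 with Ms4a2). The share over whole windows thus does not set Cd200r3 and Cd200r4 apart. A word match is a description of the letters and not a bound site.

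Cd200r1 had no read in any of the 4 Sca-1+ libraries and between 491 and 2413 reads in every Sca-1- library. Its level was 55.9 CPM in Sca-1- library 8, 159 in 10, 57.3 in 14, 80.1 in 16 and 20.0 in 22, with a mean of 74.5 ± 51.9 CPM (SD, n = 5). Sca-1- library 10 was thus the highest and 22 the lowest, a range of 7.95-fold, and no library of one group reached the other. Set against the limit of 3 reads per library, the Sca-1+ level lay at least 702-fold under that mean. The gene (ENSMUSG00000022667) spans chr16:44765736-44794978 on the plus strand of GRCm38.

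Cd200r4 (chr16:44811733-44839150, plus strand), the activating relative next to it, was also at 0 reads in each Sca-1+ library. It reached 5.17 CPM in Sca-1- library 8, 16.3 in 10, 9.42 in 14, 24.9 in 16 and 2.73 in 22. The group mean of 11.7 ± 8.99 CPM (SD, n = 5) lay at least 110-fold above the limit in Sca-1+ libraries. Library 16 led here, but the range was 9.12-fold, close to that of Cd200r1.

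Cd200r3 (chr16:44943678-44981380, plus strand), an activating member described on basophils and mast cells, behaved otherwise. It had 0, 0, 0 and 10 reads in Sca-1+ libraries 7, 13, 15 and 19. In the Sca-1- libraries it stood at 1.56 CPM in 8, 23.3 in 10, 66.0 in 14, 424 in 16 and 4.64 in 22. The highest library exceeded the lowest 272-fold, and 81.6% of the summed Sca-1- level came from library 16, against 21.5% for Cd200r1. The remaining relative in the cluster, Cd200r2, had no read in any of the 9 libraries. Family members are similar in sequence, and how reads matching more than one of them were counted is not given, so their split is uncertain.

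**Figure D1:**
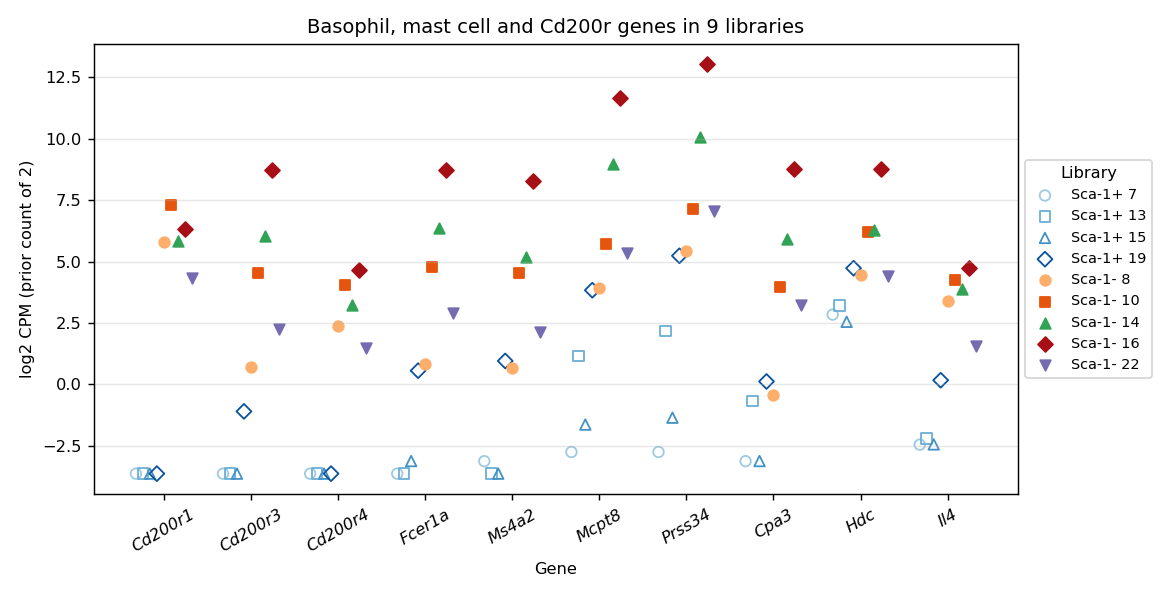
Level of each of the 10 genes in each library on the log2 CPM scale (prior count of 2), with open symbols for the 4 Sca-1+ and filled symbols for the 5 Sca-1- libraries. Cd200r1 and Cd200r4 sit at the floor in every Sca-1+ library, and library 16 is the highest Sca-1- library for 9 genes but not for Cd200r1.

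The IgE receptor subunits followed Cd200r3. Fcer1a, the α chain that holds IgE, had 0, 0, 1 and 36 reads in Sca-1+ libraries 7, 13, 15 and 19. Its Sca-1- levels were 1.68 CPM in 8, 27.2 in 10, 81.5 in 14, 424 in 16 and 7.45 in 22. Library 16 alone gave 78.2% of the Sca-1- sum.

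Ms4a2, the signal-amplifying β chain, had 1, 0, 0 and 48 reads in the same Sca-1+ libraries. It measured 1.502 CPM in Sca-1- library 8, 23.0 in 10, 36.7 in 14, 313 in 16 and 4.36 in 22. At 1.86 CPM, Sca-1+ library 19 lay above Sca-1- library 8, so the groups overlapped.

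The granule proteases Prss34 and Mcpt8 had the highest mean Sca-1- levels of the 10 genes. Mcpt8, a basophil protease despite its mast cell name, had 2, 63, 7 and 366 reads in Sca-1+ libraries 7, 13, 15 and 19. It stood at 15.02 CPM in Sca-1- library 8, 52.8 in 10, 494 in 14, 3194 in 16 and 40.4 in 22. Sca-1+ library 19, at 14.2 CPM, came just under Sca-1- library 8.

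Prss34, a basophil tryptase-like protease, had 2, 131, 9 and 970 reads in Sca-1+ libraries 7, 13, 15 and 19. Its Sca-1- values were 43.1 CPM in 8, 141 in 10, 1082 in 14, 8295 in 16 and 134 in 22. This one gene took 0.962% of all reads of library 16.

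Cpa3, a carboxypeptidase of both basophil and mast cell granules, had 1, 16, 1 and 26 reads in Sca-1+ libraries 7, 13, 15 and 19. Its Sca-1- values were 0.661 CPM in 8, 15.5 in 10, 60.8 in 14, 434 in 16 and 9.32 in 22, the widest range of the 10 genes at 657-fold. Sca-1- library 8 fell below Sca-1+ library 19, at 1.01 CPM.

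Hdc, which makes histamine from histidine, was the gene of the set with clear reads in every Sca-1+ library, namely 208, 269, 167 and 682 in 7, 13, 15 and 19. It measured 21.9 CPM in Sca-1- library 8, 72.7 in 10, 77.3 in 14, 430 in 16 and 21.1 in 22. Sca-1+ library 19, at 26.4 CPM, exceeded both Sca-1- libraries 8 and 22.

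Il4, a type 2 cytokine that basophils release, had 3, 4, 3 and 27 reads in Sca-1+ libraries 7, 13, 15 and 19. Its Sca-1- levels were 10.5 CPM in 8, 19.1 in 10, 14.5 in 14, 26.3 in 16 and 2.89 in 22. The range was 9.08-fold, near those of Cd200r1 and Cd200r4 and far from those of the proteases.

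On scaled CPM, every Sca-1- library lay above every Sca-1+ library in 7 of the 10 genes, while over all tested genes 18.8% did so. The other 3, Ms4a2, Cpa3 and Hdc, overlapped through Sca-1+ library 19. For Fcer1a, Mcpt8 and Prss34 the separation rested on the scaling. They had 36, 366 and 970 reads in Sca-1+ library 19 against 28, 250 and 717 in Sca-1- library 8. All 10 were called lower in Sca-1+ libraries, a call made for 21.4% of tested genes, and since the genes were chosen on this contrast nothing is read from either count. The fitted log2 fold changes, Sca-1+ over Sca-1-, ran from -3.37 (SE 0.99) for Hdc and -5.40 (SE 0.96) for Il4 to -10.09 (SE 2.18) for Cd200r3 among the 8 genes with Sca-1+ reads. These 8 values moved, to differing degrees, when either of 2 libraries was left out, and Il4 moved least without Sca-1- library 16. Without Sca-1- library 16 they shrank to -7.96 for Cd200r3, -6.40 for Fcer1a, -5.13 for Ms4a2, -5.19 for Mcpt8, -5.06 for Prss34, -5.74 for Cpa3, -2.002 for Hdc and -5.09 for Il4. Without Sca-1+ library 19 they grew to -14.32 for Cd200r3, -12.68 for Fcer1a, -12.16 for Ms4a2, -9.84 for Mcpt8, -10.22 for Prss34, -8.95 for Cpa3, -4.08 for Hdc and -6.94 for Il4.

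Compared per kilobase of exon, since longer transcripts collect more reads, the median Sca-1- level was 116 CPM per kb for Prss34, 52.9 for Mcpt8 and 27.3 for Fcer1a. Cd200r1 came next at 17.1, followed by Il4 at 11.8, Hdc at 11.4 and Cpa3 at 10.2, and Ms4a2 (8.17), Cd200r4 (4.61) and Cd200r3 (3.90) were lowest. The ranges of all 9 neighbouring pairs in that order overlapped, and for 7 of the 10 genes the SD over the Sca-1- libraries exceeded the mean. These ranges leave out that all genes were measured in the same libraries. Within each Sca-1- library Prss34 lay above Mcpt8, Mcpt8 above Fcer1a and Cd200r1 above Il4. The other neighbouring pairs did not keep their order in every Sca-1- library.

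The Sca-1- libraries were ordered alike, 16 above 14, 10, 22 and 8, for 6 genes, namely Cd200r3, Fcer1a, Ms4a2, Mcpt8, Prss34 and Cpa3. Library 16 supplied 78.2 to 85.6% of their summed Sca-1- level, whereas the median over 12151 genes was 20.4% and 38 of those genes reached 75%. Their highest and lowest Sca-1- libraries differed 193-fold to 657-fold, against a median of 2.77-fold. Cd200r1 was ordered 10, 16, 14, 8 and 22 from high to low, and Il4 and Cd200r4 were ordered 16, 10, 14, 8 and 22.

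**Figure D2:**
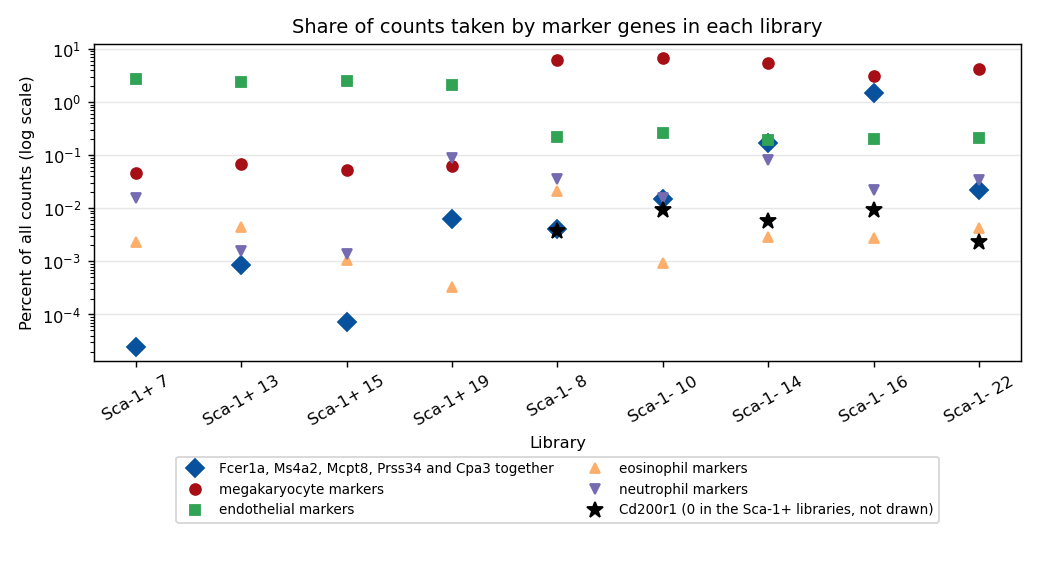
Percentage of all reads, on a log axis, taken in each of the 9 libraries by the 5 summed basophil genes, by Cd200r1 and by the marker lists of 4 other cell types. The basophil sum reaches 1.47% in Sca-1- library 16 and 0.00415% in library 8, while Cd200r1, at 0 in Sca-1+ and not drawn there, stays between 0.00228 and 0.0093% in the Sca-1- libraries.

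Sca-1- library 16 and Sca-1+ library 15, which share a mouse number, had 96183 and 7 Mcpt8 reads and 2413 and 0 Cd200r1 reads. Ptprc, the CD45 gene, was also highest in library 16, at 47.8 CPM against 17.2 to 39.7 CPM in the other Sca-1- libraries. The megakaryocyte markers were lowest in that library, at 3.09% of reads. Over the marker lists of other cells, 11 of 12 general leukocyte, 8 of 11 erythroid, 3 of 3 B cell, 1 of 2 T and NK cell, 2 of 3 eosinophil and 3 of 12 neutrophil genes tested were lower in Sca-1+ libraries. Of 12 monocyte and macrophage genes, 1 was lower and 2 were higher. Over all tested genes 21.4% were called lower and 23.3% higher. The neutrophil, monocyte and macrophage counts lay near or under these shares. The lists with 2 or 3 tested genes are too small to set against them. The part of these other cell markers in the results was not tested.

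To ask how closely Cd200r1 kept step with the basophil genes, each gene was set against the sum of Fcer1a, Ms4a2, Mcpt8, Prss34 and Cpa3, itself left out, and against the summed megakaryocyte markers. The measure was the SD of the log2 ratio over the 5 Sca-1- libraries, small where both move in parallel, and these ratios were chosen after the values had been seen. Against the basophil sum the SD was 0.26 for Mcpt8, 0.38 for Prss34, 0.77 for Cd200r3, 0.80 for Fcer1a, 0.92 for Ms4a2 and 0.98 for Cpa3. It was 1.52 for Hdc, 2.30 for Cd200r4, 2.53 for Il4 and 2.97 for Cd200r1, with 3.04 as the median of all genes. Against the megakaryocyte sum the SD was 0.9997 for Cd200r1, 1.42 for Il4 and 1.58 for Cd200r4, with 1.12 as the median of those 12151 genes. The 6 basophil genes lay between 3.50 and 4.09. Cd200r1 thus lay near the median of the 12151 genes in both measures. Without library 16 its SD was 2.24 against the basophil and 0.64 against the megakaryocyte sum. Against the megakaryocyte sum Il4 then stood at 0.76 and Cd200r4 at 0.77. No median of all genes was taken without library 16, so these values cannot be set against the medians above.

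**Figure D3:**
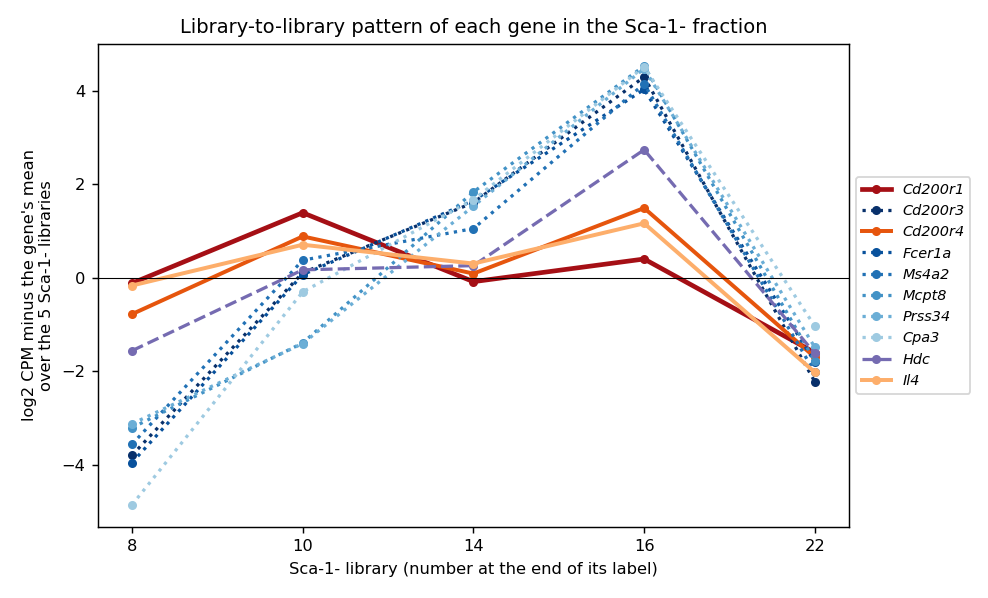
Log2 CPM of the 10 genes across the 5 Sca-1- libraries, each centred on its own mean, with lines that only join values of one gene since the libraries have no order. The basophil genes swing from lowest in library 8 to highest in library 16, and Cd200r1, Cd200r4 and Il4 stay in a narrower band with library 22 lowest.

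Counted against Mcpt8, Prss34 stayed nearly level, at 2191 to 3304 reads per 1000 Mcpt8 reads in the 5 Sca-1- libraries and 2650 in Sca-1+ library 19. Cd200r3 lay at 104 to 134 in libraries 8, 14, 16 and 22 and at 442 in library 10. Fcer1a and Ms4a2 were also highest relative to Mcpt8 in library 10, at 516 and 435. Cd200r1 ran from 25.1 reads per 1000 Mcpt8 reads in library 16 to 3724 in library 8. Il4 ran between the same libraries from 8.22 to 696.

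Sca-1+ library 19 and Sca-1- library 8 held similar numbers of basophil reads, 1446 and 1031 for the 5 summed genes, but 0 and 931 Cd200r1 reads. In Sca-1+ library 19 the neutrophil markers took 0.0877% of reads, the highest of the 9 libraries, and their part in its basophil reads was not tested. Sca-1+ library 13 had 210 basophil reads, library 15 had 18 and library 7 had 6, each with no Cd200r1 read. Basophil reads thus occurred without a Cd200r1 read in Sca-1+ library 19. Sca-1+ libraries 7, 13 and 15 had 2, 63 and 7 Mcpt8 reads. At the library 16 ratio of 25.1 Cd200r1 reads per 1000 Mcpt8 reads, the lowest of the 5 Sca-1- libraries, few or none would be due. In Sca-1+ library 19, with 366 Mcpt8 reads, that ratio would give only a small number. At the library 8 ratio of 3724, Cd200r1 reads would be due in each of these Sca-1+ libraries. Which ratio would hold in Sca-1+ libraries is not known. The lack of Cd200r1 reads in libraries 7, 13 and 15 thus decides nothing. On scaled CPM Cd200r1 was highest in library 10, not in library 16, which had the most basophil reads. As a share of all reads Cd200r1 took 0.00930% in library 16 and 0.00922% in library 10, so that order rested on the scaling.

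**Figure D4:**
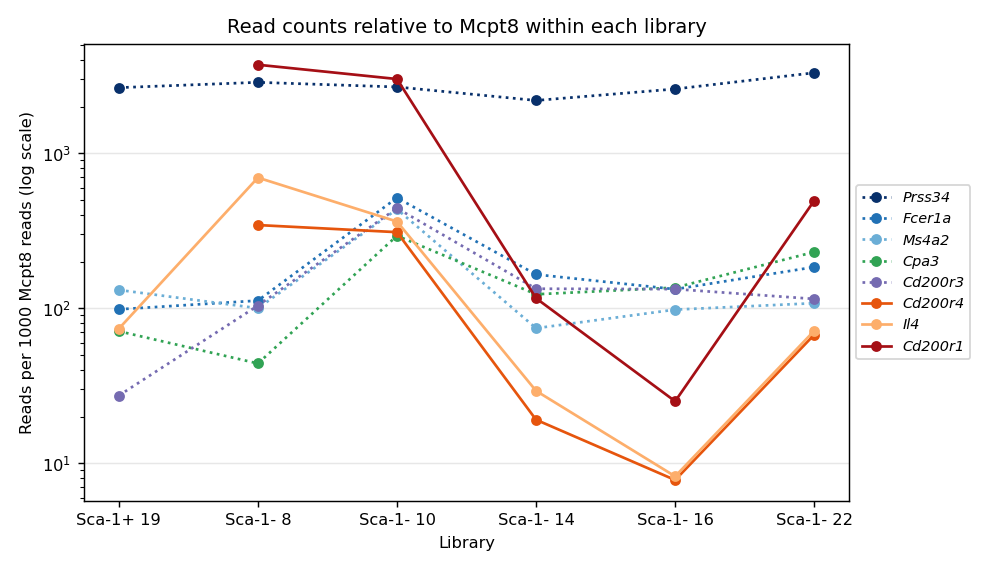
Reads of 8 genes per 1000 Mcpt8 reads, on a log axis, in the 5 Sca-1- libraries and Sca-1+ library 19, with lines that only join values of one gene and values of 0 not drawn. Prss34 is nearly level at 2191 to 3304 in the Sca-1- libraries, whereas Cd200r1 spans 25.1 to 3724.

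Across all 9 libraries, the genes closest to Cd200r1 among 12914 ranked were Hmha1, Lat, Npas4, Itga2b and Gad1, with root mean square differences of centred log2 CPM of 0.54, 0.62, 0.63, 0.66 and 0.68. Lat encodes an adaptor of T cell, mast cell and platelet receptors, and Itga2b the platelet integrin αIIb. Cd200r4 ranked 124, Il4 337, Cd200r3 348, Fcer1a 434 and Mcpt8 681. Both groups enter this ranking, so much of the likeness comes from the contrast by which the genes were chosen. Within the 5 Sca-1- libraries the difference from Cd200r1 was 0.52 for Il4, 0.61 for Cd200r4, 1.35 for Hdc and 2.36 to 2.97 for the other 6 genes.

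Of the genes within 250 kb of Cd200r1, 3 outside the receptor family had reads enough for a test. Boc, a cell surface coreceptor of hedgehog signalling, was higher in Sca-1+ libraries (log2 fold change 1.48, SE 0.40, adjusted p = 0.0124). BC027231 (0.09, SE 0.46, adjusted p = 0.887) and Gtpbp8 (-0.48, SE 0.32, adjusted p = 0.237) did not pass the test.

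The following gene lists were drawn up with earlier results of these data known, and their adjusted p-values come from edgeR's quasi-likelihood test over all 15937 genes, with the called share 44.8% in either direction. Of 19 other basophil genes tested, 10 were lower in Sca-1+ libraries, 3 higher and 6 did not pass, with a median log2 fold change of -3.01 against 0.07 for all genes. Without Sca-1- library 16 the split was 9 lower and 7 higher of 18 tested, and without Sca-1+ library 19 it was 11 lower and 1 higher of 19. Cyp11a1, a steroid synthesis enzyme, had no Sca-1+ read and was at least 515-fold lower there (135-fold without library 16, adjusted p = 0.0047). The interleukin receptor genes Il18rap and Il1rl1 were at least 164-fold and 34.3-fold lower (adjusted p = 0.0069 and 0.0039, or 45.0-fold and 16.9-fold without library 16, where Il1rl1 was too low to be tested). Library 16 gave 79.0% of the Sca-1- level of Cyp11a1 and 78.0% of that of Il18rap, but 14.5% for Alox5ap, a leukotriene synthesis gene (log2 fold change -7.59, adjusted p = 5.8e-05). Il3ra, the receptor chain for the basophil growth factor IL-3, went the other way, with 14.7 CPM in Sca-1+ and 4.98 in Sca-1- libraries. Its log2 fold change was 1.55 with an adjusted p of 0.087. Without library 16 the change was 2.37 and passed (adjusted p = 0.0066, range over 15 alternatives 0.0066 to 0.167). With scaling to the endothelial markers it was -1.85. The 3 genes called higher, named here after their values were seen, were Ltc4s, which makes a cysteinyl leukotriene (log2 fold change 3.96, adjusted p = 4.9e-05), the cytokine gene Il6 (2.90, adjusted p = 0.0186) and the transcription factor gene Nfil3 (1.27, adjusted p = 0.0381). Il6 did not pass without Sca-1+ library 19 (1.93), nor did Nfil3 when any library but Sca-1- library 16 was left out (1.04 to 1.36). With scaling to the endothelial markers Ltc4s was at 0.73 and did not pass, Il6 was at -0.42, and Nfil3 turned to -2.01.

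Many of the other mast cell genes had no read, whereas each of the 20 other basophil genes had reads in Sca-1- library 16. Of 18 other mast cell genes, 8 had no read in any library, among them Mcpt1, Mcpt2, Mcpt4, Tpsab1 and Tpsb2, the proteases that define mucosal and connective tissue mast cells. The chymase gene Cma1 had 21 reads, all in Sca-1- library 8. Of the 6 genes tested, 3 were lower in Sca-1+ libraries, namely Rab27b, which moves granules (log2 fold change -9.81, adjusted p = 1.2e-04), Slc18a2, a monoamine transporter (-3.62), and Srgn, the granule proteoglycan (-1.99). These 3 also act in platelets. Over the 6 tested genes the median log2 fold change was -1.44, and of all tested genes 21.4% were called lower. Kit, the stem cell factor receptor of mast cells, gave -0.89 with an adjusted p of 0.215.

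Of 13 genes of IgE receptor signalling, 11 were lower in Sca-1+ libraries and 1 higher, with a median of -3.27. Vav1 (-9.60), Lat (-9.58), Btk (-7.76) and Syk (-6.73) were among the lower genes, and each is also used by receptors of other blood cells. Fcer1g, the shared γ chain, fell by 1.796 on the log2 scale (adjusted p = 0.0032) and took 19.1% of its Sca-1- level from library 16, against 78.2% for the α chain. The γ chain was thus spread over the Sca-1- libraries more evenly than the α chain.

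Of 7 CD200 receptor partners tested, 5 were lower in Sca-1+ libraries and 1, the ligand Cd200, was higher. Dok2 (-8.67), which the inhibitory receptor recruits, Hcst (-5.88) and Dok1 (-4.06) were lower. Tyrobp, the partner of the activating receptors, had a log2 fold change of -5.35 (adjusted p = 0.0100) and took 72.5% of its Sca-1- level from library 16, without which the change was -3.81, while without Sca-1+ library 19 it was -6.72. Cd200 had 953 ± 94.7 CPM (SD, n = 4) in Sca-1+ and 84.9 ± 44.8 CPM (SD, n = 5) in Sca-1- libraries (log2 fold change 3.49, adjusted p = 1.1e-04). When libraries were scaled to the endothelial markers instead, that change was 0.37 and did not pass (adjusted p = 0.445, range over 15 alternatives 3.8e-15 to 0.445).

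Of 11 lineage transcription factors tested, 8 were lower in Sca-1+ libraries and 1 higher. Gata1 (-8.08), a master factor of red cells and platelets, Ikzf1 (-5.26), Runx1 (-3.67) and Tal1 (-3.07) were among them, and Gata2, needed for basophils and mast cells, fell by 2.76 on the log2 scale (adjusted p = 0.0014). Of 8 histamine and type 2 cytokine genes, 1 was lower and 4 were higher. The lower one, the histamine receptor gene Hrh4 (-6.44, adjusted p = 0.0165), took 87.7% of its Sca-1- level from library 16, and its change was -3.75 without that library and -10.46 without Sca-1+ library 15. Among the higher ones were the receptor chains Il13ra1 (4.51) and Il4ra (3.11) and the cytokine Tslp (2.30). With scaling to the endothelial markers the split of this list was 3 lower and 1 higher, Il4ra was at 0.0059 and Tslp turned to -1.02.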

How the data were processed

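RNA from sorted BM ECs was extracted with the miRNeasy micro kit and made into full-length poly(A) libraries with the SMART-Seq v4 kit. The authors deposited 1 table of unnormalized counts (reads per gene, 9 libraries), and the submitters' processing notes name STAR, featureCounts and mm10. Versions, gene annotation and strand setting are not given in the sources used here, so reads from overlapping or antisense genes may be shared.

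Groups were taken from the labels. Counts were scaled by TMM and tested with edgeR 4.0.16 (quasi-likelihood, R 4.3.3) after edgeR's default expression filter (count 10, total 15), with Benjamini-Hochberg adjustment at 0.05. Log2 CPM values used a prior count of 2. The 16 pairs of libraries within a group differed by 36.8 to 538 in chi-square per degree of freedom, where sampling noise alone gives about 1, so none was counted as a copy. Coordinates came from GENCODE on GRCm38, in which 45143 gene identifiers were found. The script was tested on simulated counts.

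The members and gene lists were chosen with earlier results of these data known. Named genes were the members, up to 4 called genes per list with the largest changes (groups not overlapping, average log2 CPM from 1 upwards), 7 further partner or lineage genes (Fcer1g, Tyrobp, Cd200, Gata1, Gata2, Il3ra and Kit), the 5 genes most like Cd200r1 and the genes within 250 kb of it. Alternatives were DESeq2 1.42.0, other scalings and filters, a mouse-number block and leaving out each library.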

Additional observations from a re-analysis of the deposited data

Results flagged for a closer look

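Over 48 sets of values in one group, 6 had one library set far apart from the rest. The rule's rate of about 1 in 20 holds for independent sets without ties. These sets shared libraries, and Cd200r3 was tied at 0 reads in Sca-1+ libraries 7, 13 and 15. The count is thus not set against chance. In Sca-1+ library 19 the log2 CPM was -1.10 for Cd200r3, 0.56 for Fcer1a, 0.96 for Ms4a2 and 0.17 for Il4, each far above the other 3 Sca-1+ libraries. The summed B cell markers of that library stood at 5.50 in log2 CPM, against 0.21 to 0.35 in the others. The summed eosinophil markers of Sca-1- library 8 stood at 8.31, against 4.01 to 5.20 in the other Sca-1- libraries.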

How the results depend on the processing

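All 10 members stayed lower in Sca-1+ libraries under every alternative run, and none of their 150 recomputed fold changes reversed. The signs of list genes were not followed in that count. Nfil3, Il6, Il3ra and Tslp changed sign with scaling to the endothelial markers, as given above. Scaling to the endothelial markers moved the median log2 fold change of all genes from 0.07 to -3.08 and the genes called to 13051, of which 12711 were lower and 340 higher in Sca-1+, and it raised the mast cell genes called from 3 to 5. The other alternatives kept the total called, over all genes and in each list, within 1.5 times its value, but not each direction in the small lists. Among the other basophil genes, 3 were higher at first, 7 without Sca-1- library 16, 5 with the block and 1 without Sca-1+ library 19, and among the histamine and cytokine genes the lower calls went from 1 to 0 with DESeq2 and to 2 without Sca-1- library 8. Library size alone gave a median of 0.43 and a split of 2431 lower and 4158 higher, against 3416 and 3721. A replicate block by shared mouse number, which ties only libraries 15 and 16, gave 6847 calls against 7137. Leaving out 1 library gave 5957 to 6969 calls. Kit was called only with the endothelial scaling, Il3ra under 3 of 15 alternatives, and Hrh4 under 14, with no adjusted p given by DESeq2. Fold changes of genes at 0 in Sca-1+ depend on the prior count. At this depth 2 members had no read in any Sca-1+ library, so their changes are lower bounds.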
